A study of Mus musculus with 4 samples.

Results

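Among the transcripts read in fetal livers on 4 single-colour arrays were those of 10 genes that mark the stomach, the gut or the pancreas. The stomach genes were Gkn1, Gkn2, Tff1, Tff2 and Barx1, the gut gene was Cdx2, and the pancreas genes were Pdx1, Ptf1a, Cpa1 and Gcg. They were 10 of the 22909 genes that could be named on the array, and 11 of its 56596 usable probes, since Gkn1 had 2 probes and each other gene had 1. The 10 genes were proposed with their levels on these arrays in view. Their differences between the diets and between single arrays are therefore a description and carry no test.

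The livers came from fetuses at 14.5 days post coitum (dpc) of C57BL/6J dams. During gestation the dams were fed a control diet (CD) or a high-fat diet (HFD). CD held 4.3% of kcal as fat, 19.2% as protein and 67.3% as carbohydrate. HFD held 60% as fat, 20% as protein and 20% as carbohydrate, so the diets differed in carbohydrate as well as in fat. Each diet had 2 arrays, called CD replicates 1 and 2 and HFD replicates 1 and 2, and all 4 lay on 1 slide read in 1 scan. The sources used here do not say how many fetuses or dams stand behind an array, so the spread between 2 arrays may be partly technical. The 4 arrays are labelled female, but the Y-linked transcript Eif2s3y was at 1.45 and 1.84 on CD replicate 1 and HFD replicate 1 and not well above background on the other arrays, while Xist was well above background only on CD replicate 2 and HFD replicate 2. Each group therefore held 1 array with each pattern, and the split ran the same way in both diets, from replicate 1 to replicate 2. Within a single diet, a difference between its 2 arrays cannot be told apart from this split. The part of the split in the differences between arrays was not tested. Of the spots, 65.4% to 70.0% per array were well above background, and the number of arrays limits the precision. A level is given throughout as the log2 of the signal relative to the 75th percentile of its array, so a level of 0 is that percentile and a difference of 1 is 2-fold. Levels were compared between arrays for 1 probe at a time, and brightness across probes served only to pick the genes to name and, for marker lists, to form sums, in which the brightest probes weigh most. Pairs of values are given in the order of replicates 1 and 2.

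Stomach, gut, pancreas and liver all arise from the embryonic endoderm, and the pancreas buds lie next to the liver bud. Barx1 is a homeobox factor of the stomach mesenchyme, whereas gastrokines and trefoil factors are secreted by the mucous cells of the gastric epithelium. Cdx2 is the homeobox factor that sets intestinal identity. Pdx1 and Ptf1a are transcription factors of the early pancreas, Cpa1 is a carboxypeptidase of exocrine progenitors and acinar cells, and Gcg is the glucagon precursor of alpha cells and of some gut endocrine cells. Of the hepatoblast markers, 11 of 11, among them Alb and Afp, stood well above background on every array. So did 16595 of the 22909 named genes, so this count does not by itself tell liver from other tissues. In RNA from a whole organ, fewer cells of a type and less RNA per cell cannot be told apart.

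Each of the 10 genes was detected on at least 3 arrays. For 7 of them the signal stood well above background on all 4, and for Gkn1, Tff2 and Pdx1 on 3. What set the genes apart from one another was the array on which they stood high or low. For 6 of the 10, the 2 arrays of at least 1 diet differed by more than the 2 diet means did. The mean was lower with HFD for 7 genes, and the median difference was -0.48 against 0.04 over the 18192 genes that passed the filters. Both HFD arrays lay below both CD arrays for Gkn1, Tff1 and Tff2 and above them for Gkn2. Over 17460 genes well above background on at least 2 arrays, the 2 diets did not overlap for 33% (HFD above for 23.1%, HFD below for 9.87%). Since the members were chosen on these arrays, nothing is read from that comparison. With 2 arrays against 2, an exact permutation test could not reach a p below 0.333.

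**Figure D1:**
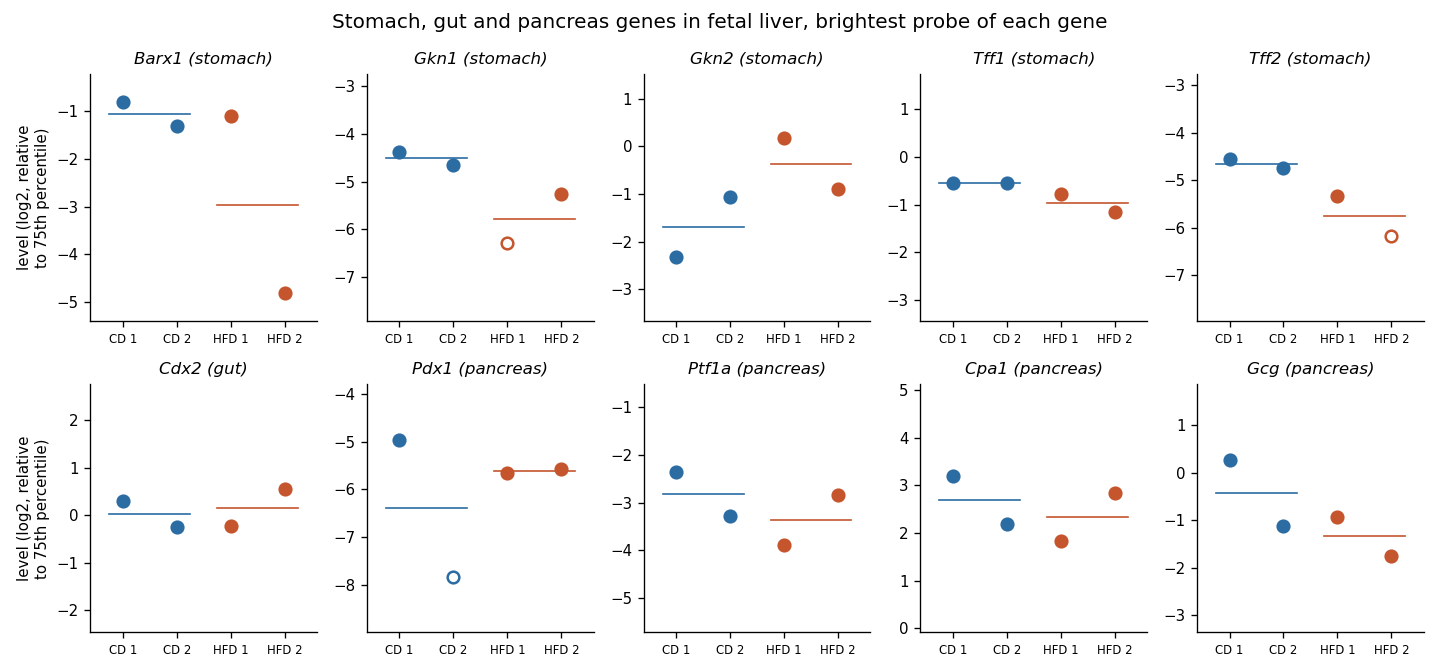
Level of each gene (log2 relative to the 75th percentile of the array, every panel spanning the same number of log2 units) on the 2 CD arrays (blue) and the 2 HFD arrays (red), with the group means as lines; open circles were not well above background. Barx1 was low on HFD replicate 2, Pdx1 was not well above background on CD replicate 2, and Ptf1a and Cpa1 followed the same order.

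Barx1 showed the widest spread of the 10 genes. Its level was -0.80 and -1.31 on CD replicates 1 and 2, -1.10 on HFD replicate 1 and -4.81 on HFD replicate 2. HFD replicate 1 thus lay between the CD arrays, and HFD replicate 2 was 13.0-fold lower than it, with a signal that was still well above background. The means were -1.06 ± 0.36 with CD and -2.96 ± 2.62 with HFD (SD, n = 2 each), a difference of -1.90 that became -0.05 without HFD replicate 2 and -3.75 without HFD replicate 1. Among the 16936 genes well above background on both HFD arrays, 1 other gene was lower on HFD replicate 2 than on HFD replicate 1 by at least as much. That gene was Cym, chymosin, the milk-clotting protease of the newborn stomach. Over the 17460 genes well above background on at least 2 arrays, 14 fell by at least as much, Barx1 included. Some of these, such as the Y-linked Eif2s3y, were not well above background on HFD replicate 2. As Barx1 was chosen with these levels in view, nothing is read from its rank.

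Cym was also the gene whose levels followed Barx1 most closely. Likeness was measured as the root mean square difference between the 4 centred levels, over 17459 other genes, and it was 0.20 for Cym. The level of Cym was 1.02 and 0.39 with CD and 1.07 and -2.65 with HFD, a 13.2-fold difference between the HFD arrays. Next came D030018L15Rik, a non-coding transcript that was not well above background on HFD replicate 2 (0.33), and Nkx6-3, a homeobox factor of the gastric antrum (0.40). Nkx6-3 was at -3.31 and -3.32 with CD and -3.55 on HFD replicate 1, and on HFD replicate 2 it was not well above background, at least 4.44-fold below HFD replicate 1. In all, 5 genes lay within 0.5 of Barx1. The other two, named after their values were seen, were Anxa10, an annexin of gastric epithelium, and Krt13, a keratin of stratified squamous epithelia, and neither was well above background on HFD replicate 2.

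Other stomach genes were taken from a list of 22, of which 21 had a probe and 19 were well above background on at least 2 arrays. A level more than 2-fold lower on HFD replicate 2 than on HFD replicate 1 was seen in 4 of these 19 (21.1%), namely Anxa10, Vsig1, Nkx6-3 and Sox2, and in 1.08% of all genes. The list was chosen with earlier results of these data known, so nothing is read from these shares. Anxa10, Vsig1 and Nkx6-3 were not well above background on HFD replicate 2. Anxa10 was at least 6.51-fold lower on HFD replicate 2, and Vsig1, a junction protein of gastric epithelium, at least 2.48-fold lower. Sox2, a factor of foregut and stomach epithelium, was well above background on all arrays, at -1.96 and -2.63 with CD and at -1.83 and -3.82 with HFD. The rest of the 19 did not show such a gap. Pgc, a pepsinogen of the list, was not well above background on any array and was not counted. Over the 19, the median difference between HFD replicates 2 and 1 was -0.06. After normexp background correction, 3 of the 19 genes were lower by more than 2-fold, and the gap of Barx1 was 2.35 in place of 3.71 on the log2 scale.

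**Figure D2:**
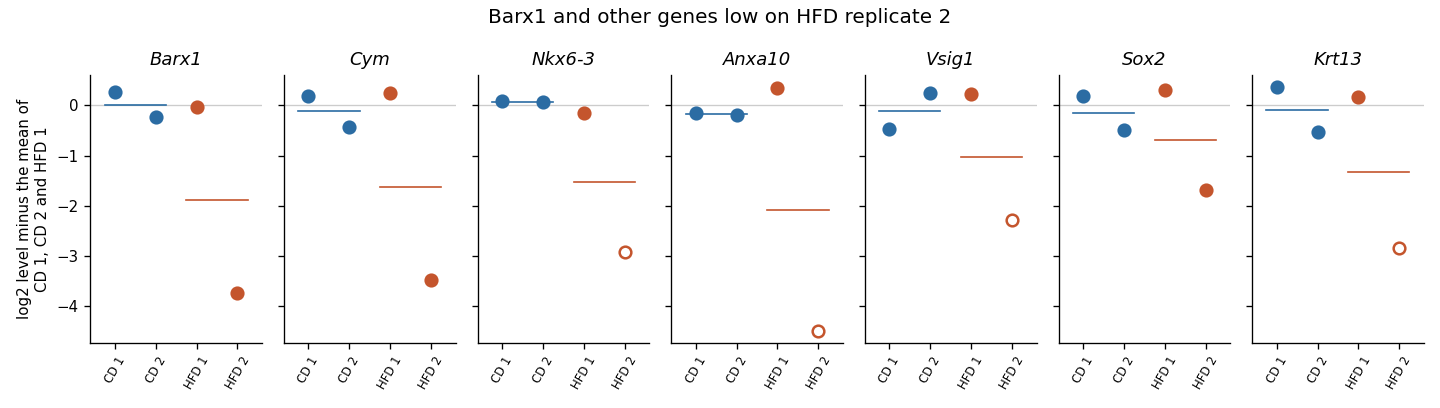
Level of Barx1 and of 6 other genes (log2, minus the mean of CD 1, CD 2 and HFD 1 for that gene) on the CD arrays (blue) and HFD arrays (red), with group means as lines; open circles were not well above background. For each of the 7 genes the 3 other arrays were at most 0.90 apart and HFD replicate 2 was the lowest.

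The secreted mucous genes of the stomach differed less between the HFD arrays. On HFD replicate 2, Gkn2 was 2.12-fold and Tff1 1.30-fold lower than on HFD replicate 1, Tff2 was at least 1.29-fold lower, and Gkn1 was higher. Gkn2, gastrokine 2, was higher with HFD, with levels of -2.33 and -1.06 with CD and 0.18 and -0.90 with HFD. It was highest on HFD replicate 1 and lowest on CD replicate 1, 5.67-fold apart, and the upper CD array lay just below the lower HFD array. The means were -1.69 ± 0.90 with CD and -0.36 ± 0.76 with HFD (SD, n = 2 each), a difference of 1.33. Gkn2 did not pass the filters because the spread on the linear scale was over 50% of the mean in both groups. The genes nearest to Gkn2 over the 4 arrays were Tslrn1 (0.28), Tex19.1 (0.29) and Pga5, a pepsinogen of the stomach (0.30), and 34 genes lay within 0.5.

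The promoters of Barx1, a developmental factor, and of Gkn2, a secreted product, are shown as examples of unlike stomach genes (RefSeq, build GRCm38.p6, plus strand, 250 bases before and 30 after the start). Both strands were searched for TATAAA, which 13.1% of promoters held, and matches are in capitals.
Barx1, chr13:48662786-48663065: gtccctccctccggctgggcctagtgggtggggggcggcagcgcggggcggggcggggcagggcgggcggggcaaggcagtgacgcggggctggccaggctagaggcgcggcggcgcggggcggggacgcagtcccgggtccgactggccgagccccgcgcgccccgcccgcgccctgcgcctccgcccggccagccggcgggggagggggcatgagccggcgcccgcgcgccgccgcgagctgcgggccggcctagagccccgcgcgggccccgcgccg
Gkn2, chr6:87373115-87373394: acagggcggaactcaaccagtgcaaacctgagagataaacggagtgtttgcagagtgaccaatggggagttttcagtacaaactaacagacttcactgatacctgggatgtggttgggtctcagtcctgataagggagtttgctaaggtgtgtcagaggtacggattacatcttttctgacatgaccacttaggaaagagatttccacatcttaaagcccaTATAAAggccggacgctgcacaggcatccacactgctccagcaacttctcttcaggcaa
The Barx1 window held 47 CpG dinucleotides, more than in 99.2% of promoters, and no TATAAA. The Gkn2 window held 5 CpG and TATAAA beginning 29 bases before the start. Of the 10 genes, 8 had an entry in the promoter table, and Tff1 and Tff2 were without one.

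Gkn1, gastrokine 1, was dim, and its 2 probes did not agree. With the brighter probe the level was -4.37 and -4.65 with CD, -5.27 on HFD replicate 2 and -6.30 on HFD replicate 1, where it was not well above background. The HFD arrays lay below the CD arrays, by 1.27 between the means. The second probe stayed near background on each array and gives no fold, and with the mean of both probes the difference was -0.004.

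Tff1 and Tff2, the trefoil peptides secreted with gastric mucus, were both lower with HFD. Tff1 was at -0.55 on both CD arrays and at -0.78 and -1.16 with HFD. The difference between the means was -0.42, a fold of 1.34, and the 2 HFD arrays were themselves 0.38 apart. Tff2 was at -4.56 and -4.74 with CD and at -5.33 and -6.17 with HFD, the last of which was not well above background. The groups did not overlap for either gene, and the difference for Tff2 was -1.10, and -0.29 after normexp correction.

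Of the 5 lists of related genes, 110 of 113 genes had a probe and 98 passed the filters, and 1 of the 98 was past the cutoffs (an unadjusted p of 0.05, taken here from limma, and 2-fold), against 0.764% of 18192 genes. It was Ctse, cathepsin E, an aspartic protease of gastric epithelium and of red blood cells. Ctse was 2.34 and 2.66 with CD and 0.09 and -0.04 with HFD. Each group was tight and the fall was 2.48 on the log2 scale (SE 0.19, limma, adjusted p = 1.00). Over all 41332 tested probes, 0 passed after Benjamini-Hochberg adjustment of the limma p, while an unadjusted limma p under 0.05 was reached by 7 of the 98 listed genes and by 2.84% of all genes. Of 8 erythroid markers, 0 were past the cutoffs, and their median difference was 0.13. The other bright genes on the stomach list, not all of them particular to the stomach, gave small differences between the diets. Pitx1, a homeobox factor also made in limb and pituitary, differed by 0.17 and Tff3 by 0.13. Pitx1 was 3.79 on CD replicate 1 and 1.45 on CD replicate 2, a 5.06-fold gap within 1 diet. Neither passed the cutoffs.

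Some markers of other organs were lower with HFD, as were Ctse and the member Tff1. The members Tff2 and Gkn1 (brighter probe only) were lower too, within the limits given above. Of 7 tested lung and airway markers, 3 were past the cutoffs (0.764% of all tested genes were), all lower with HFD. They were the surfactant genes Sftpc and Sftpb and the lung factor Nkx2-1. The summed level (linear, relative to the 75th percentile) of the whole list was 6.40 and 6.71 with CD and 5.67 and 7.19 with HFD. Etv5, which is not particular to the lung, made up most of that sum, and without it the sums were 1.00 and 1.52, and 0.77 and 1.89. Other genes of the list went the other way without passing the cutoffs. Both HFD arrays lay above both CD arrays, as for 23.1% of all genes, for Sftpd and Scgb1a1. Sftpd is a further surfactant gene (1.14 between the means), and Scgb1a1 is a secreted protein of airway cells (0.43). Sftpb and Nkx2-1 were not well above background with HFD, and Sftpa1 was not on any array. Neurod2, a forebrain factor, was past the cutoffs among 8 neuron markers. The mean was lower with HFD for 8 of the 8, with a median difference of -0.81. Tubb3, Dcx and Neurod2 had an unadjusted limma p under 0.05, as had 2.84% of all genes. The neuron sums were 23.3 and 16.1 with CD and 11.4 and 15.9 with HFD. Without Stmn2, the brightest of the list, they were 11.1 and 9.61, and 5.94 and 7.90. Psg17, a glycoprotein of trophoblast, was past the cutoffs among 3 tested trophoblast markers, and the sums over the 7 with a probe were 62.9 and 64.5 with CD and 46.4 and 49.4 with HFD. Gcm1, a factor of labyrinth trophoblast, made up most of the sum on 3 arrays and had a higher mean with HFD (by 0.55, not past the cutoffs). The other 6 summed to 12.7 and 45.0 with CD and 3.14 and 0.89 with HFD. Both HFD arrays lay below both CD arrays for 6 of those 7, against 9.87% of all genes, and 4 of these 6 did not pass the filters. Among the 4 was Tpbpa, a spongiotrophoblast protein, at 3.01 and 4.80 with CD and 1.00 and -1.01 with HFD. The part of these cells in the differences between the diets was not tested.

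The 4 pancreas genes were all highest on CD replicate 1, and the arrays of the 2 diets overlapped for each of the 4. Over all genes, 26.8% were highest on that array, and the 2 diets did not overlap for only 33%. As the members were chosen on these arrays, nothing is read from these counts.

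Cpa1 and Ptf1a ran together from array to array. Cpa1 was 3.20 and 2.19 on CD replicates 1 and 2, and 1.84 and 2.83 on HFD replicates 1 and 2. Ptf1a was -2.35 and -3.28 with CD, and -3.88 and -2.84 with HFD. In both genes the order was CD replicate 1, HFD replicate 2, CD replicate 2 and HFD replicate 1 from high to low, an order found in 2.75% of all genes. Their centred levels differed by 0.10 (root mean square), the smallest value among the pairs of the 10 genes. The gap between the 2 CD arrays was 2.01-fold for Cpa1 and 1.91-fold for Ptf1a, and between the 2 HFD arrays 1.99-fold and 2.07-fold. The differences between the diets were smaller, at -0.36 and -0.54. They rested on single arrays: they were 0.14 and -0.08 if CD replicate 1 was left out and -0.86 and -1.01 if CD replicate 2 was.

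Ptf1a protein is part of the PTF1 complex, which binds an E-box and a TC-box in promoters of acinar enzymes, so the promoters of both genes are shown (source, strand and window as for Barx1). Both strands were searched for CAGCTG as the E-box and TTTCCCA as the TC-box, which do not overlap here. The matches are in capitals.
Cpa1, chr6:30638968-30639247: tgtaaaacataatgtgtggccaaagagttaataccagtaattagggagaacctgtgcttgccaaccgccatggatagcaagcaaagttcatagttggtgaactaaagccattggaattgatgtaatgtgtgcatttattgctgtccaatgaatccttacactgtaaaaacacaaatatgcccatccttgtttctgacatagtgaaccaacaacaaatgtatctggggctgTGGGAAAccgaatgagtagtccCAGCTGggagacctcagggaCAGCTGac
Ptf1a, chr2:19445413-19445692: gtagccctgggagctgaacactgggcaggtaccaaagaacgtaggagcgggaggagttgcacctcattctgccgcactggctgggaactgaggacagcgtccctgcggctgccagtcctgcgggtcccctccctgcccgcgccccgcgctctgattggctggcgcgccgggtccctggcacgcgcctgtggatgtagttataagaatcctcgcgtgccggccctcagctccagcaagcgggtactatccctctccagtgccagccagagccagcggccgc
The Cpa1 window held 1 TC-box, read on the other strand, 20 bases before the start, and 2 E-boxes, beginning at bases 3 and 23 after it. Of 32851 promoters, 14.9% held this E-box, 7.58% this TC-box and 1.14% both. The Ptf1a window held neither set of letters. A match is a description of the sequence and not a measured site.

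The other exocrine genes mostly shared the direction of both gaps within a diet, but less often the full order of the arrays. Of 25 listed, 24 had a probe and 22 were well above background on at least 2 arrays. The full order of Cpa1 and Ptf1a was found in 4 of the 22 (18.2%, against 2.75% of all genes). CD replicate 1 was above CD replicate 2 for 19 of the 22 (86.4%, against 44.7% of all genes), HFD replicate 2 was above HFD replicate 1 for 19 (86.4%, against 42.4%), and both held for 17 (77.3%, against 23.2%). The count of 17 was 15 after quantile normalization and 16 after normexp correction. Several probes on the list are for trypsins, which are close copies of one another, so these may not be independent readings. The list was also chosen with earlier results of these data known, so nothing is read from these shares. Ctrb1, a chymotrypsinogen, was named after its values were seen. It was 2.96 and 1.15 with CD and 1.20 and 2.16 with HFD, and thus higher on CD replicate 1 and HFD replicate 2. Of the 3 brightest genes, Cela1 did so by a smaller margin, and Spink1 and Pnliprp1 did not. Cela1, an elastase, was 2.40 and 2.23 with CD and 2.31 and 2.56 with HFD. Spink1, a trypsin inhibitor, was 4.32 and 4.93, and 4.58 and 4.71. Between the diets 0 of 22 tested exocrine genes were past the cutoffs. Pnliprp1, a pancreatic lipase homologue, was 3.24 and 3.22 with CD and 2.79 and 2.74 with HFD, a difference of -0.46 (SE 0.16, limma, adjusted p = 1.00). Sycn, syncollin of zymogen granules, was -1.19 and -1.21 with CD and -0.75 and -0.59 with HFD, a difference of 0.53 (SE 0.17, limma, adjusted p = 1.00). These were the 2 exocrine genes with an unadjusted limma p under 0.05.

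Markers of other cells moved with these genes. Visceral smooth muscle markers were highest on CD replicate 1 in 7 of 7 (26.8% of all genes were). Both differences ran the same way as in Cpa1 in 7 of 7 (23.2% of all genes did). The summed level of the smooth muscle markers (linear, relative to the 75th percentile) was 136 and 77.6 with CD and 80.6 and 103 with HFD. Enteric neural crest markers, such as Ret, were highest on CD replicate 1 in 7 of 7, with summed levels of 6.92 and 4.22, and 4.26 and 4.82. Hepatoblast markers were lowest on CD replicate 1 in 11 of 11 (43% of all genes were), with sums of 1980 and 3007 with CD and 2376 and 2421 with HFD. Both differences ran as in Cpa1 in 5 of 7 enteric neural crest markers, 6 of 8 neuron markers, 12 of 20 gut genes, 2 of 7 mesothelium markers, 2 of 7 lung markers, 2 of 8 erythroid markers, 1 of 7 trophoblast markers and 0 of 11 hepatoblast markers. Each of the smooth muscle and enteric neural crest markers was well above background on every array. The part of these cells in the result was not tested.

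**Figure D3:**
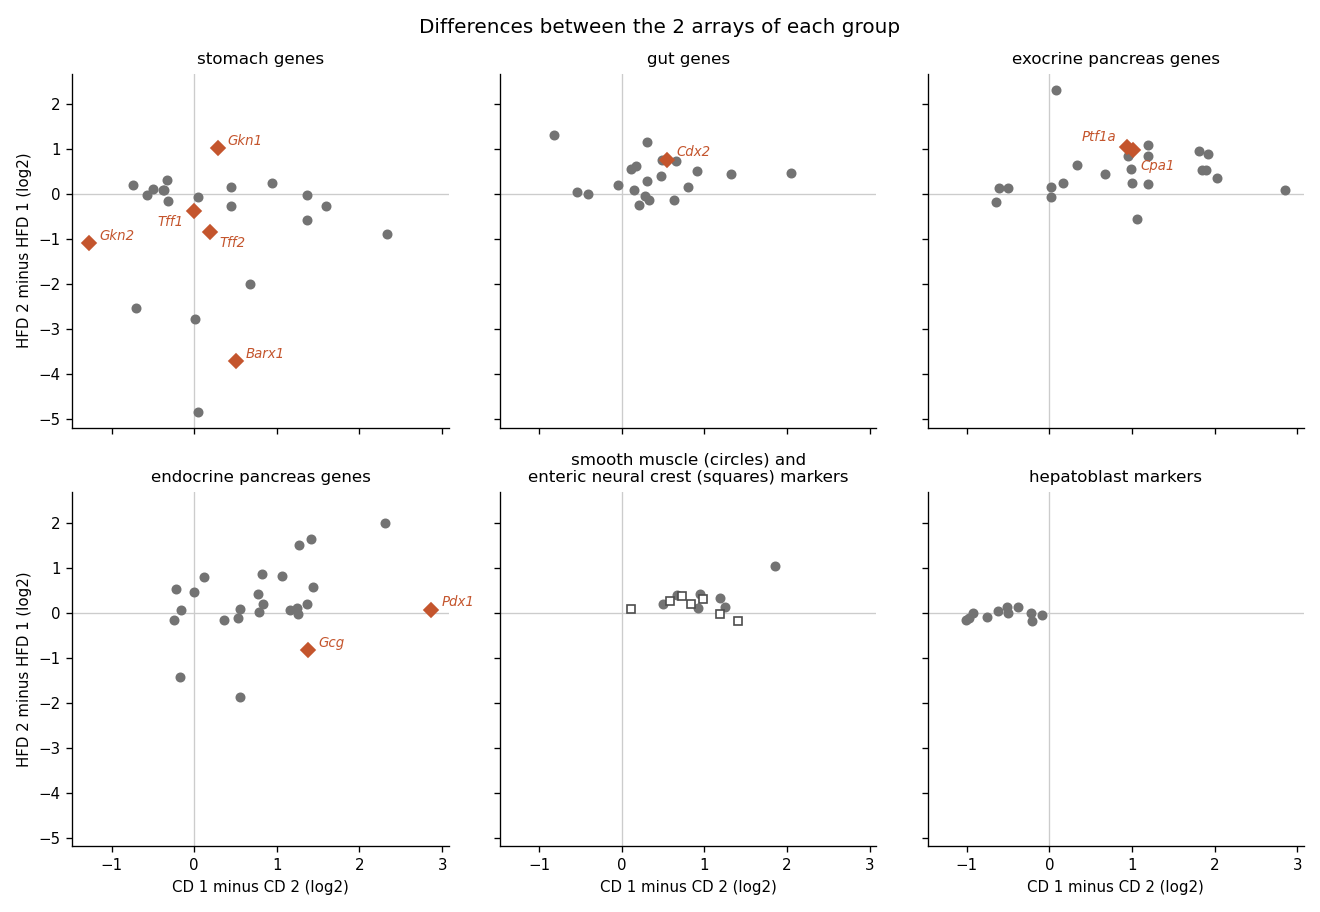
Difference between the 2 CD arrays (horizontal, CD 1 minus CD 2, log2) against that between the 2 HFD arrays (vertical, HFD 2 minus HFD 1, log2), with 1 point per gene well above background on at least 2 arrays and the 10 genes as red diamonds. Exocrine genes, Cpa1 and Ptf1a lay mostly in the upper right, Barx1 and 4 stomach genes at the bottom, and hepatoblast markers at the left.

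Pdx1, which marks the pancreas and the duodenum, was near the limit of the array. Its level was -4.96 on CD replicate 1, -5.65 and -5.57 with HFD and -7.83 on CD replicate 2, where it was not well above background. The 2 HFD arrays were alike within 0.07, and the CD arrays lay on either side of them. The measured gap between the CD arrays was 2.87, but as CD replicate 2 was at background the data allow only a difference of at least 1.52-fold. Without CD replicate 2 the difference between the diets was -0.65 in place of 0.78. Pdx1 did not pass the filters, as it was under the 20th percentile of an array. Its nearest genes were Gm13715 (0.07), Hoxa10 (0.11) and Dnah9 (0.12), with 79 genes within 0.5. Gm13715 and Dnah9, like Pdx1, were not well above background on CD replicate 2, so their likeness rests on a value at background. Hoxa10, a posterior Hox gene, was well above background throughout, at 1.36 and -1.55 with CD and 0.46 and 0.84 with HFD.

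Gcg was 0.26 and -1.12 on CD replicates 1 and 2, and -0.93 and -1.75 on HFD replicates 1 and 2. CD replicate 1 stood 4.03-fold above HFD replicate 2, while CD replicate 2 fell between the HFD arrays. The means were -0.43 ± 0.97 with CD and -1.34 ± 0.59 with HFD (SD, n = 2 each), and the difference of -0.91 was -0.22 without CD replicate 1. The nearest genes were Ecel1, a neuronal endopeptidase (0.13), Htr7, a serotonin receptor (0.13), and Cilp, a cartilage matrix gene (0.15), and as many as 619 genes lay within 0.5.

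Of 25 endocrine pancreas genes, all had a probe and 23 were well above background on at least 2 arrays. CD replicate 1 was the highest array for 14 of the 23 (26.8% of all genes were highest there). Both within-group differences ran as in Cpa1 for 14 (60.9%, against 23.2% of all genes). This list too was chosen with earlier results of these data known, so nothing is read from these shares. Chgb, a secretory granule protein of endocrine and chromaffin cells, was 2.73 and 0.43 with CD and 0.34 and 2.35 with HFD, so that CD replicate 1 and HFD replicate 2 were high. Mafa, a factor of beta cells, was flat, between 1.13 and 1.29 on all 4 arrays. Gcgr, the glucagon receptor, which hepatocytes carry, was 2.11 and 2.36, and 2.49 and 2.34. Of 20 that were tested, 0 were past the cutoffs, and 3 (Nkx6-1, Pcsk1 and Glp1r) had an unadjusted limma p under 0.05, with adjusted p = 1.00 for each.

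Cdx2 differed least between the diets. It was 0.29 and -0.25 with CD and -0.22 and 0.55 with HFD, highest on HFD replicate 2 and lowest on CD replicate 2. The difference between the diets was 0.14, below the gap of 0.54 within CD and of 0.77 within HFD. It turned to -0.24 if HFD replicate 2 was left out and to -0.13 if CD replicate 2 was.

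Many gut genes, though not all, were highest on the same array as Cdx2. Of 20 gut genes well above background on at least 2 arrays, 11 were highest on HFD replicate 2 (17.7% of all genes were). A further 7 were highest on CD replicate 1 (26.8% of all genes were). The lowest array was CD replicate 2 for 11 (32.7% of all genes). As with the other lists, these genes were chosen with earlier results of these data known, so nothing is read from these shares. Guca2b, uroguanylin, was 3.32 and 4.15 with CD and 3.78 and 5.10 with HFD. Lgals4, a galectin of gut epithelium, was 2.94 and 2.29, and 2.32 and 3.07. Krt20, a keratin of gut epithelium, was 3.07 and 3.61, and 3.52 and 3.57. HFD replicate 2 was thus the highest array for Guca2b and Lgals4 but not for Krt20. Between the diets 0 of 22 tested gut genes were past the cutoffs, and Guca2a, guanylin, alone had an unadjusted limma p under 0.05, with a difference of 0.47 (limma, adjusted p = 1.00).

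Endoderm factors that the liver or bile duct also uses served as a comparison. Their signal was well above background on every array for 16 of 16, 0 were past the cutoffs or had an unadjusted limma p under 0.05, and the median difference was -0.01. Hnf4a was 3.91 and 4.01 with CD and 4.32 and 4.27 with HFD. Gata6 was 2.04 and 1.45, and 1.82 and 1.88, and Onecut2 was 1.74 and 1.94, and 1.59 and 1.80. Both within-group differences ran as in Cpa1 for 4 of the 16, a share of 25%, close to the 23.2% of all genes.

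The spread between arrays was wide for most of the 10 genes. For the 7 with signal well above background on every array, the median range over the arrays was 1.53 on the log2 scale, against 0.41 for 16595 such genes. The gap between the 2 HFD arrays was over the 90th percentile of those genes (0.37) for 7 of the 7, and the gap between the 2 CD arrays was over theirs (0.82) for 4. Over those genes the median gap was 0.30 between the CD arrays and 0.09 between the HFD arrays. As the 10 genes were proposed with their levels on these arrays in view, nothing is read from this comparison.

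**Figure D4:**
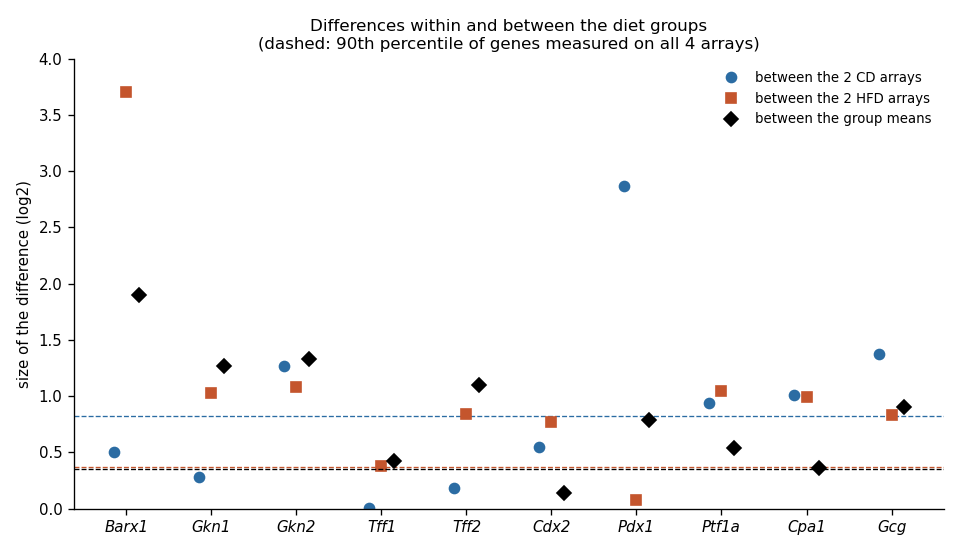
Size of the difference (log2) between the 2 CD arrays, between the 2 HFD arrays and between the 2 group means for each gene, with dashed lines at the 90th percentile of 16595 genes well above background on all 4 arrays, in matching colours. Barx1 (3.71 between the HFD arrays) and Pdx1 (2.87 between the CD arrays, 1 of them at background) stand out, and for 6 genes a difference within a diet exceeds that between the diets.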

How the data were processed

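The labels gave each array its diet and replicate number, and the study's methods gave the age. Per the labels, Cy3-labeled cRNA was hybridised and scanned, and the authors used Agilent Feature Extraction 11.0.1.1. The authors deposited a background-subtracted intensity for each spot, not scaled between arrays, the median spot and background intensity, and flags that are a score of 0 or 1. A further deposited table holds normalized signal (41471 probes). Of the 41463 probes it shared with those used here, all but 25 to 37 per array equalled the intensity divided by 1 constant per array, within 0.1%.

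Outlier spots were left out, the log2 intensity was averaged over the spots of a probe, and the 75th percentile of each array was subtracted. Tests covered 41332 probes, after removal of those that fell under the 20th percentile of some array or had a CV over 50% in both groups. Probes were named through RefSeq transcripts of GRCm38.p6, and the brightest probe stood for a gene. The comparison of HFD with CD used lmFit and eBayes of limma (version 3.58.1, R 4.3.3) on the 4 arrays with no covariates and Benjamini-Hochberg adjustment over all tested probes, whereas the study's general statistics name Student's t-test. The steps were tested on simulated data. Where an array was not well above background, a fold was given as a bound against the lowest level well above background on that array. Named genes were the 10 members, the genes of each list past the cutoffs and its 3 brightest, the cell markers, and the 3 nearest genes of each member with a range of at least 2. The members and lists were chosen with earlier results of these data known. Normexp used the median spot intensity. Tables and plots were made with Python 3.11.15, pandas 2.3.3 and matplotlib 3.10.9.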

Additional observations from a re-analysis of the deposited data

How the results depend on the processing

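With 2 arrays per diet, single arrays decided most values. The number of probes past the cutoffs was 318 (38.1% of them higher with HFD) and lay between 656 and 1223 when 1 array was left out, the highest without CD replicate 1, when 68.8% were higher. It was 28 after normexp correction, 845 without the 20th percentile filter and 97 with the methods' t-test. Genes of the 5 lists past the cutoffs numbered 1, and 4 to 9 when 1 array was left out (7 without CD replicate 1, 9 without CD replicate 2, 8 without HFD replicate 1 and 4 without HFD replicate 2). They numbered 2 with quantile normalization, with the deposited table, without the 20th percentile filter and with the filter on signal well above background, and 3 with the replicate number as a block, when Nkx6-3 and G6pc2 joined Ctse. Without HFD replicate 1, 6 probes and 1 of the listed genes, Nkx6-3, had an adjusted limma p under 0.05. There the lone HFD array is assumed to vary like the CD arrays, and Nkx6-3 was not well above background on it. None did under each of the other alternatives. Ctse kept its direction and stayed past the cutoffs in 14 of 14 alternatives (-2.63 to -2.32). The median difference of the 10 members was -0.94 to -0.15 when 1 array was left out, and 7 of the 10 kept their sign in all 9 alternatives, the exceptions being Cdx2, Pdx1 and Cpa1. A kept sign says little where the difference shrank to -0.004 (Gkn1), -0.02 (Ptf1a) or -0.05 (Barx1). The deposited table differs from the main levels by little more than a constant per array, so it could hardly change a sign. Over the tested probes as a whole, the deviations of same-numbered arrays correlated at -0.10. The replicate numbers did go with the Y-linked and Xist patterns, so the replicate block was also a block for that split. It gave 435 probes past the cutoffs. Leaving out saturated spots changed nothing, as there were 0, and a block for slide or scan was not run, as there was 1 of each. Gkn1, Tff2 and Pdx1 were too close to background for their differences to be well determined.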
